A study of Mus musculus with 14 samples.

Results

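T cell receptor gene segments are the pieces of DNA from which each T cell builds its antigen receptor. The set described here held every GENCODE gene of GRCm38 classed as a variable (V), diversity (D), joining (J) or constant (C) segment of a T cell receptor locus, without pseudogenes. It numbered 226 genes, of which 210 were analysed, among 30284 genes in all. Of the 226, 162 lay in the alpha locus, 39 in the beta locus, 15 in the gamma locus and 10 in the delta locus. The remaining 16 genes (12 alpha V segments, 1 alpha J segment, 2 gamma J segments and Trdc, the delta constant gene) were not analysed here.

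The cells were regulatory T cells, the CD4 T cell subset that restrains immune responses, sorted as Foxp3+YFP+ cells from the spleens of C57/B6 mice. Every mouse carried 1 Foxp3-driven Cre allele (Foxp3cre/wt), so any deletion would be limited to cells that express or have expressed Foxp3. The control group was Tln1wt/wtFoxp3cre/wt (4 units, called wild-type after their label) and the other group Tln1fl/flFoxp3cre/wt (3 units titled as knockout and called floxed after their label). Tln1 is the gene of the integrin-activating adaptor talin-1. The labels name no age. Each library came from 1-2 animals, and each unit was deposited as 2 parts that were added together. RNA was sequenced with a non-stranded kit, and totals ran from 13017008 to 39706502 estimated reads in the wild-type units and from 39314880 to 56772674 in the floxed units. The total signal of Tln1 was 668 ± 128 CPM (SD, n = 4) in the wild-type units and 901 ± 113 CPM (SD, n = 3) in the floxed units (edgeR adjusted p = 0.126). CPM are estimated reads scaled to a library of 1000000. Tln1 was thus not lower in the floxed units. A sum over all transcripts of a gene does not show whether a part of it was deleted, so the genotype label could not be checked from this value. Foxp3 was at 419 ± 71.0 CPM in the wild-type units and 428 ± 76.1 CPM in the floxed units. Across 6 regulatory T cell markers the summed level was 2754 to 3913 CPM in the wild-type units and 1665 to 2461 CPM in the floxed units, and 3 of the 6 (Il2ra, Ikzf2 and Nrp1) fell. Of all 15775 genes tested in the same edgeR fit, 6.52% fell and 7.07% rose. Markers of other cells were higher in the floxed units: 6 of 8 B cell markers (summed 31.3 to 80.3 CPM against 165 to 342 CPM), 6 of 8 myeloid markers (9.28 to 91.4 CPM against 333 to 1658 CPM) and 4 of 5 natural killer cell markers (6.32 to 9.21 CPM against 16.3 to 45.6 CPM). Of these markers, Itgam, Elane, S100a8 and Klra8 were at 0 in at least 1 wild-type unit, and the part of such cells in the results was not tested.

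A developing T cell joins 1 V segment to 1 J segment, with a D segment between them in the beta and delta chains, and splices the product to a constant gene. Alpha pairs with beta on the conventional T cells to which regulatory T cells belong, while gamma pairs with delta on a separate lineage, and the delta locus lies inside the alpha locus. The V segment encodes the part of the receptor that contacts the presenting molecule, and the V-J junction encodes the loop that reads the antigen. A population of T cells therefore has a mixed repertoire, and the share of reads over each V segment is a coarse picture of which receptors it holds.

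Receptor segments drew 0.237, 0.338, 0.322 and 0.268% of all gene reads in wild-type units 1 to 4 and 0.272, 0.250 and 0.192% in floxed units 1 to 3. The ranges overlapped, and floxed unit 3 was the lowest of the 7 units. The beta locus gave 74.9 to 81.3% of segment reads in a unit, the alpha locus 18.3 to 24.1%, the gamma locus 0.282 to 0.782% and the delta locus 0.0963 to 0.194%. Beta and alpha reads thus made up nearly all of the receptor signal in all 7 units. The 4 D segments, 11 to 16 bases long, are shorter than a 31-base word and were listed at 0 in all units. Trav11d was the other segment listed at 0 in all units. In bulk RNA, fewer cells of a type and less RNA per cell cannot be told apart, and both would lower a segment's reads.

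Of the 210 segments, 185 had enough reads for the test of the floxed against the wild-type units and 25 did not. V segments made up most of what changed. In edgeR's quasi-likelihood test with Benjamini-Hochberg adjustment over all genes, 14 of the 185 fell and 1 rose, 8.11% together. Of all 15775 genes tested 13.6% changed, 7.07% upward and 6.52% downward. The share of segments that changed in either direction was thus below the background. That came from the rises, since the share of segments that fell was slightly above that of all genes. With an offset for GC content and transcript length, 52 of the 185 segments fell, where 1110 of 15759 genes fell. In the main fit the median log2 fold change was -0.22 over the segments and 0.06 over all genes. Of the 14 falls, 8 were beta V segments (8 of 22), 5 were alpha V segments (5 of 90 tested) and 1 was an alpha J segment (1 of 46 tested). The other 27 segments tested were the 13 beta J segments, 7 gamma segments, 4 delta segments and 3 alpha and beta constant genes. Of these, 0 passed in the main edgeR fit, limma-voom or DESeq2's Wald test. In the main edgeR fit 0 of them had an unadjusted p under 0.05. The CPM values of the groups did not overlap in 40 of the 185 segments, 37 of them lower in the floxed units, where 30.8% of all genes tested did not overlap.

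**Figure D1:**
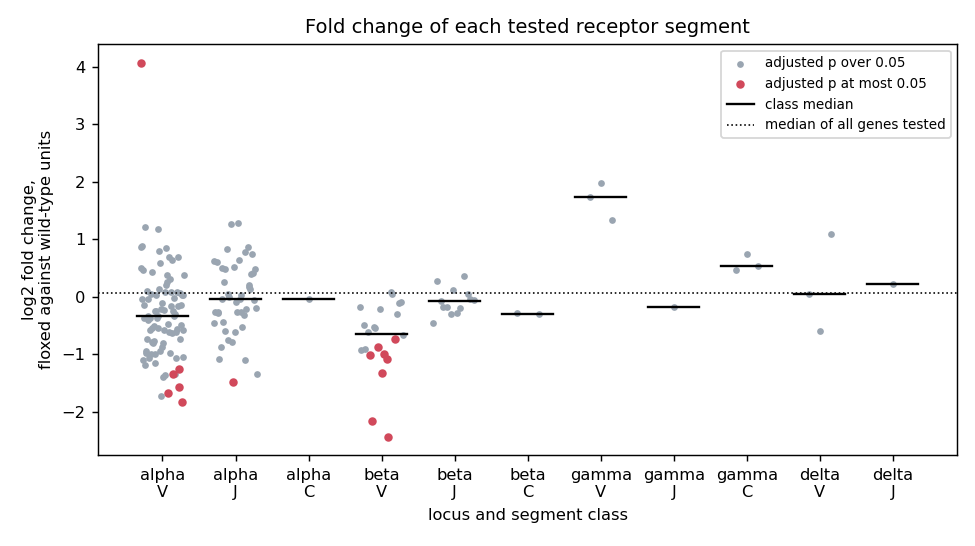
Log2 fold change (vertical axis, floxed against wild-type) of each of the 185 tested segments, grouped by locus and class on the horizontal axis; points with an adjusted p of at most 0.05 are red, bars are class medians and the dotted line is the median of all genes. The beta V median lies at -0.64 and the alpha V median at -0.33, below the dotted line at 0.06, while the alpha and beta J medians lie at -0.04 and -0.07 and the beta constant median at -0.29.

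The constant genes carry the reads of every rearranged chain whatever its V segment. Trac, the alpha constant gene (ENSMUSG00000076928, chr14:54220521-54224206, plus strand), was at 246, 328, 364 and 282 CPM in wild-type units 1 to 4 and 321, 301 and 273 CPM in floxed units 1 to 3. The floxed values lay inside the wild-type range, and the log2 fold change was -0.03 ± 0.16 (SE; edgeR adjusted p = 0.908). Trbc1 and Trbc2, the alternative beta constant genes (ENSMUSG00000076490 and ENSMUSG00000076498 on chromosome 6), were at 595 ± 131 and 912 ± 169.9 CPM in the wild-type units. In the floxed units they were at 489.6 ± 72.5 and 739 ± 104 CPM, and neither passed in the main fit (log2 fold changes -0.28 ± 0.19 and -0.30 ± 0.19, edgeR adjusted p = 0.342 and 0.287). In an edgeR fit with an offset for GC content and transcript length, Trbc2 passed (log2 fold change -0.71, edgeR adjusted p = 0.0326). In that fit Trac and Trbc1 were at -0.96 and -0.57 and did not pass (edgeR adjusted p = 0.0568 and 0.0792). Trbc1 took 39.4 ± 1.68% of beta constant reads in the wild-type units and 39.8 ± 1.46% in the floxed units, although 44.8 and 48.5% of the 31-base words of Trbc1 and Trbc2 also occur in another gene, so their division depends on how shared reads were assigned. The 13 beta J segments, between 3.65 and 23.1 CPM in the wild-type units, had a median log2 fold change of -0.07.

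Reads over V segments were fewer for a given number of constant reads in the floxed units. In the beta locus there were 46.6, 42.3, 42.3 and 46.2 V reads per 100 constant reads in wild-type units 1 to 4 and 40.3, 36.2 and 27.9 in floxed units 1 to 3. In the alpha locus the same ratio was 76.7, 77.4, 68.3 and 86.7 against 62.8, 59.8 and 50.4. Neither set of values overlapped between the groups, and floxed unit 3 was the lowest in both loci. An exact two-sided permutation test gave p = 0.0571 for each, the smallest that 35 assignments of 4 and 3 units allow, so 0.05 could not be reached (adjusted p = 0.114 over 14 ratios). J reads per 100 constant reads did not separate in either locus, at 21.7 ± 6.57 against 20.8 ± 3.84 for alpha and 9.98 ± 1.67 against 11.1 ± 1.22 for beta (exact permutation p = 1 and 0.4).

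**Figure D2:**
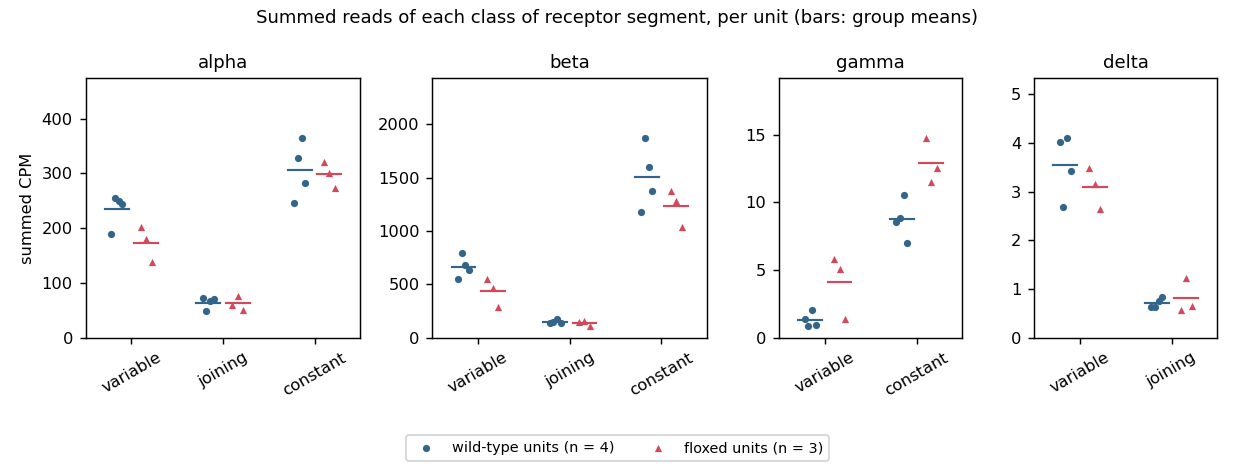
Summed CPM (vertical axis, a separate scale for each panel) of the V, J and constant segments of each locus in every unit, with group means as bars; the 2 gamma J segments, under 1 CPM in all units, are not drawn. Beta variable reads run from 551 to 790.1 CPM in the wild-type units and from 289 to 552 CPM in the floxed units, and gamma constant reads from 7.01 to 10.5 CPM against 11.5 to 14.7 CPM.

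Summed over its 22 V segments the beta locus gave 551, 790.1, 677 and 636 CPM in the wild-type units and 552, 462 and 289 CPM in the floxed units, a log2 difference of -0.65 in which floxed unit 1 reached the lowest wild-type unit (exact permutation p = 0.114, adjusted p = 0.314 over 11 sums). The alpha V sum was 189, 254, 249 and 245 CPM against 202, 180.2 and 138 CPM, a log2 difference of -0.44 in which wild-type unit 1 lay among the floxed values (exact permutation p = 0.114). Without floxed unit 3 the log2 differences were -0.38 for beta V and -0.29 for alpha V. Per 100 reads of the 4 CD3 chain genes, beta V reads numbered 53.4 ± 1.27 in the wild-type units and 44.2 ± 6.37 in the floxed units, with no overlap (exact permutation p = 0.0571, adjusted p = 0.114). Per CD3 chain read the alpha V difference shrank to -0.08 on the log2 scale, and that of the beta constant sum turned from -0.28 to 0.08. The alpha constant sum turned from -0.02 to 0.35 per CD3 chain read, with groups that no longer overlapped (exact permutation p = 0.0571). CD3 chain reads were themselves lower in the floxed units. Cd3g fell (log2 fold change -0.61, edgeR adjusted p = 0.0498), Cd3e and Cd3d were lower short of the threshold, and Cd247 was not lower. Dividing by them moves every sum upward, so a change of segments and one of CD3 chains cannot be told apart in these ratios. The ratio of alpha to beta constant reads also separated, at 20.4 ± 2.13 alpha reads per 100 beta reads in the wild-type units and 24.4 ± 1.65 in the floxed units (exact permutation p = 0.0571, adjusted p = 0.114).

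Trbv26, Trbv23 and Trbv3 showed the largest falls in the beta locus. Their sequences are shown because V segments are told apart by such letters, and Trbv13-2 and Trbv31, which did not pass the test, are given for comparison. Each line holds the last 60 bases of the coding part of the germline segment in GRCm38, 5′ to 3′ on the strand of the gene, from the GENCODE M21 transcripts, and the capitals mark the codon of the conserved cysteine where the antigen-reading loop begins.
Trbv26, chr6:41227934-41227993, plus strand: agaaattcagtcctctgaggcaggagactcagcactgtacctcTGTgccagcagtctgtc
Trbv23, chr6:41216467-41216526, plus strand: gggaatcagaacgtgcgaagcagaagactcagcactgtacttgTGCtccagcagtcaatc
Trbv3, chr6:41048769-41048828, plus strand: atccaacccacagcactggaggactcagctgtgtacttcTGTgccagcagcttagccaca
Trbv13-2, chr6:41121773-41121832, plus strand: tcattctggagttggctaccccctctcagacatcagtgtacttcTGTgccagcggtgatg
Trbv31, chr6:41557691-41557750, minus strand: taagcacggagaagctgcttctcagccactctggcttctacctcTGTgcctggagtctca
Reads of mature receptors run across the end of these lines into a D or J segment.

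Trbv26 (ENSMUSG00000076479) was at 26.5, 34.3, 23.7 and 29.9 CPM in wild-type units 1 to 4 and at 7.84, 6.46 and 4.83 CPM in floxed units 1 to 3. Every floxed value was below every wild-type value by a wide gap, and the fall was 4.49-fold (log2 fold change -2.17 ± 0.23, edgeR adjusted p = 0.000851). Trbv23 (ENSMUSG00000076478), a low segment, was at 3.62, 5.28, 5.07 and 3.43 CPM against 1.28, 0.459 and 0.673 CPM. Its groups did not overlap either, and it fell by 2.43 ± 0.45 on the log2 scale (edgeR adjusted p = 0.0102). Trbv3 (ENSMUSG00000076463), the beta V segment with most reads in the wild-type units, was at 76.4, 106, 75.3 and 96.2 CPM against 41.5, 38.4 and 25.5 CPM, a 2.51-fold fall (log2 fold change -1.33 ± 0.20, edgeR adjusted p = 0.0041). The highest floxed unit was again well under the lowest wild-type unit.

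The other 5 beta V segments that fell did so by less. Trbv12-1 and Trbv12-2, adjacent members of 1 family, went from 27.8 ± 4.76 to 13.1 ± 5.53 CPM and from 33.5 ± 4.43 to 16.6 ± 5.49 CPM (edgeR adjusted p = 0.0378 and 0.0233). Trbv17 went from 18.4 ± 2.24 to 9.18 ± 3.32 CPM (edgeR adjusted p = 0.0336). Trbv2 went from 46.0 ± 6.68 to 27.6 ± 6.38 CPM and Trbv20 from 23.8 ± 7.02 to 13 ± 1.7 CPM (edgeR adjusted p = 0.0311 and 0.0409). In all 8 the groups did not overlap, and floxed unit 3 held the lowest value in 7 of the 8, Trbv23 being the exception. Trbv5 missed the threshold (log2 fold change -0.67 ± 0.20, edgeR adjusted p = 0.0507). In all, 10 of the 22 beta V segments had groups that did not overlap in CPM, where 30.8% of all genes tested did not overlap. Each of the 10 was lower in the floxed units, and the beta V sum was itself lower there (log2 difference -0.65).

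**Figure D3:**
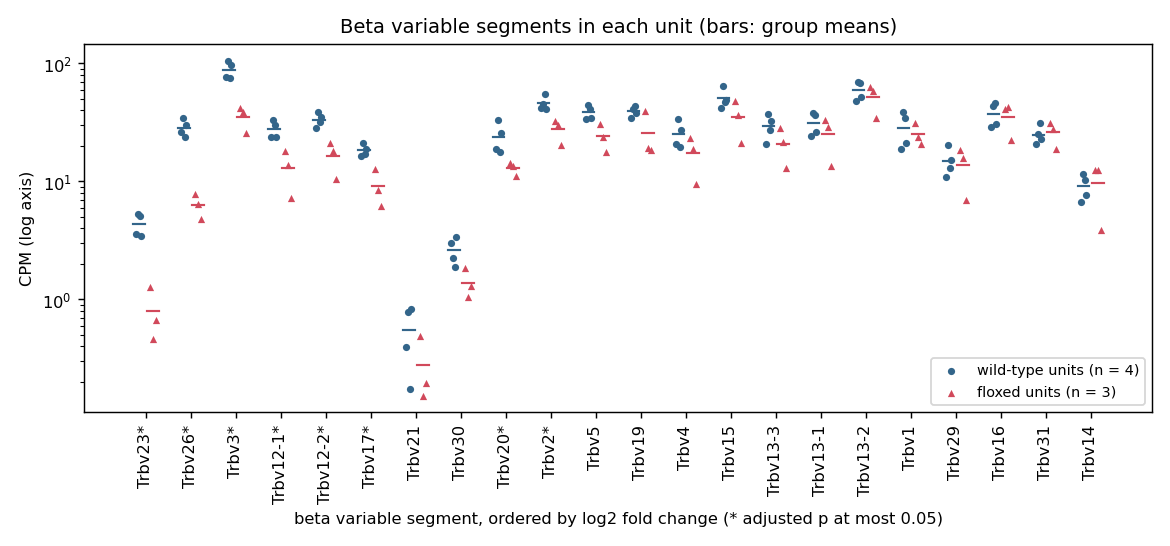
CPM (vertical axis, log scale) of the 22 beta V segments in each unit, ordered from left to right by log2 fold change, with group means as bars and asterisks at segments with an adjusted p of at most 0.05. Trbv26 lies at 23.7 to 34.3 CPM in the wild-type units and 4.83 to 7.84 CPM in the floxed units, while the groups overlap in the segments on the right, from Trbv19 to Trbv14.

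Other beta V segments did not pass the test, although 20 of the 22 had a negative log2 fold change. Trbv13-2 was at 48.5, 70.3, 68.9 and 52.3 CPM in the wild-type units and at 62.7, 59.0 and 34.8 CPM in the floxed units. Its groups overlapped (log2 fold change -0.20 ± 0.22, edgeR adjusted p = 0.559). Trbv16 had a log2 fold change of -0.08 ± 0.25, Trbv1 of -0.18 ± 0.27 and Trbv29 of -0.11 ± 0.33 (edgeR adjusted p = 0.846, 0.697 and 0.844). Trbv31, the only beta V segment that lies beyond the constant genes and in the reverse orientation, was at 25.0 ± 4.56 CPM against 26.0 ± 6.30 CPM (log2 fold change 0.06 ± 0.21, edgeR adjusted p = 0.878). Trbv15, Trbv19 and Trbv13-1, also among the 8 most used, had log2 fold changes of -0.53 ± 0.27, -0.61 ± 0.26 and -0.30 ± 0.30 and did not pass (edgeR adjusted p = 0.206, 0.143 and 0.528).

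As shares of beta V reads, which do not depend on the total signal of the locus, the profile was shifted in the same direction in all 3 floxed units. Trbv3 took 13.9, 13.4, 11.1 and 15.1% of beta V reads in the wild-type units and 7.53, 8.31 and 8.82% in the floxed units. Trbv13-2 took 8.81, 8.90, 10.2 and 8.22% against 11.4, 12.8 and 12%, so that it held the largest share in each floxed unit and Trbv3 in each wild-type unit. Trbv26 went from 4.34 ± 0.594% to 1.5 ± 0.153%, Trbv16 from 5.61 ± 0.865% to 8.14 ± 0.914%, and Trbv31 from 3.79 ± 0.609% to 6.09 ± 0.467%. Of the 19 beta V segments with a mean share of at least 1%, 9 had groups that did not overlap: Trbv13-2, Trbv16, Trbv1 and Trbv31 were higher, and Trbv3, Trbv12-1, Trbv12-2, Trbv17 and Trbv26 were lower, where 30.8% of all genes tested did not overlap in CPM. Each gave the smallest exact two-sided permutation p of 0.0571 (adjusted p = 0.147 over the 35 alpha and 19 beta shares). Per length, in the deposited TPM, Trbv13-2 was at 365 ± 80.3 TPM and Trbv3 at 293 ± 32.8 TPM in the wild-type units, and at 308 ± 100.5 and 114 ± 31.7 TPM in the floxed units. Per length, then, Trbv3 did not lead in the wild-type units on average.

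The units of a group resembled each other more in beta V use than units of different groups did. Pearson's r of the log2 shares of the 22 segments was 0.958 to 0.991 between units of 1 group and 0.913 to 0.946 between groups. It is a description in which the same 22 genes enter each value. For 90 alpha V segments with reads in every unit the ranges overlapped, at 0.719 to 0.862 within a group and 0.597 to 0.766 between groups. The 8 beta V segments that fell had 41.4 to 47.5% GC (median 44.7%) and the other 14 had 41.2 to 53.7% (median 48.1%). Across the 22 beta V segments GC content and log2 fold change had r = 0.62, again a description. An edgeR fit with an offset for the trend of each unit on GC content and transcript length gave larger falls, -2.78 for Trbv26 and -1.76 for Trbv3 on the log2 scale, with the median of all genes moved from 0.06 to -0.10 and that of the segments from -0.22 to -1.11. With that offset 52 of the 185 segments tested fell and 1 rose. Of all 15759 genes tested with it 1110 fell and 702 rose, and calls over all genes went from 52.1 to 38.7% upward. Whether the composition of the sorted cells took part in the shift of V use was not tested. Of the 10 alpha-beta T cell markers 1 fell in the main fit (Cd3g), where 6.52% of all genes tested fell. Their summed level was 3626 to 4632 CPM in the wild-type units and 3226 to 3851 CPM in the floxed units.

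The alpha locus spreads its reads over many V segments that are near copies of one another. In C57BL/6 mice a stretch of the locus is repeated, and 30 analysed alpha V segments carry a d in their name and 25 an n to tell the copies apart, beside 43 others. Of the 98 analysed alpha V segments, 74 shared over 50% of their 31-base words with another gene, so the division of reads among copies is an estimate. The members of the Trav16 family and a pair of Trav12 copies show how close they are. Each line gives the last 60 coding bases in GRCm38, 5′ to 3′, with the codon of the conserved cysteine in capitals.
Trav16, chr14:53743646-53743705, plus strand: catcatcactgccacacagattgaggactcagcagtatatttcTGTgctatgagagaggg
Trav16n, chr14:53351562-53351621, plus strand: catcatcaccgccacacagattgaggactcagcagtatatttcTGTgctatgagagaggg
Trav16d-dv11, chr14:53047762-53047821, plus strand: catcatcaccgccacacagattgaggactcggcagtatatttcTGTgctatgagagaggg
Trav12d-2, chr14:52916367-52916426, plus strand: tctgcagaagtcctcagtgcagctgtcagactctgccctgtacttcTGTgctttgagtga
Trav12n-2, chr14:53227341-53227400, plus strand: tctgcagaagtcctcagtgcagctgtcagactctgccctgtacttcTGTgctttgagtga
Over these 60 bases Trav16 and Trav16n differ at 1 base, Trav16 and Trav16d-dv11 at 2 bases, and Trav12d-2 and Trav12n-2 at none. The whole coding sequences of Trav12d-2 and Trav12n-2, of 341 bases, are identical, and both were listed at the same 1.98 ± 0.708 CPM in the wild-type units.

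The alpha V segments with the highest mean share were Trav14n-3, Trav6-6, Trav7-4, Trav14d-1, Trav3-3, Trav6-5, Trav7-2 and Trav4-4-dv10. Trav6-6 and Trav14n-3 led, at 4.60 ± 1.25% and 3.99 ± 0.861% of alpha V reads in the wild-type units, so no alpha V segment was as prominent as Trbv3 or Trbv13-2. Among these 8, only Trav7-2 passed the test. Trav7-2 (ENSMUSG00000096417, chr14:53390635-53391142), which shares 11.8% of its words with other genes, was at 5.03, 9.43, 7.49 and 5.10 CPM in the wild-type units and 3.17, 3.01 and 2.37 CPM in the floxed units. The groups did not overlap, and it fell by 1.25 ± 0.33 on the log2 scale (edgeR adjusted p = 0.0354). Trav14d-1, at 8.52 ± 1.77 and 4.44 ± 1.02 CPM, missed the threshold (edgeR adjusted p = 0.0542).

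The remaining alpha V falls were Trav6-7-dv9, Trav16n, Trav16 and Trav7-6. Trav16n (ENSMUSG00000076822) was at 4.80, 6.55, 6.62 and 6.78 CPM against 2.55, 2.22 and 1.52 CPM, and Trav16 (ENSMUSG00000076855) at 2.83, 3.57, 3.37 and 2.97 CPM against 1.77, 0.536 and 0.691 CPM. Both fell, by 1.56 ± 0.32 and 1.67 ± 0.48 on the log2 scale (edgeR adjusted p = 0.0151 and 0.0447), while the remaining member of the family, Trav16d-dv11, did not pass (log2 fold change 0.42 ± 0.59, edgeR adjusted p = 0.658). Summed over the family, which removes the division among copies, Trav16 segments took 5.25, 5.51, 4.31 and 4.30% of alpha V reads in the wild-type units and 3.72, 3.0 and 2.97% in the floxed units, with no overlap (exact permutation p = 0.0571, adjusted p = 0.127 over 13 alpha and 16 beta families). Trav6-7-dv9, a segment that can also be used in delta chains, was at 3.86 ± 0.637 CPM against 1.08 ± 0.292 CPM (log2 fold change -1.83 ± 0.37, edgeR adjusted p = 0.0141). Trav7-6 was at 2.68 ± 0.473 CPM against 1.05 ± 0.243 CPM (edgeR adjusted p = 0.0459).

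Trav15n-1 was the only segment that rose. It was at 0.157, 0.195, 0 and 0 CPM in the wild-type units and at 1.93, 1.22 and 1.03 CPM in the floxed units (log2 fold change 4.07 ± 0.96, edgeR adjusted p = 0.0243), a size that depends on the prior count because the wild-type values were at or near 0. All of its 31-base words also occur in another gene, and its last 60 bases are those of Trav15d-1-dv6d-1.
Trav15n-1, chr14:53174837-53174896, plus strand: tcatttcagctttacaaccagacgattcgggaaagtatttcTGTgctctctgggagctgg
Trav15d-1-dv6d-1, chr14:52863877-52863936, plus strand: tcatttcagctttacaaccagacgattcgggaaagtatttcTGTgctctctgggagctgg
Trav15d-1-dv6d-1 itself was at 1.14 ± 0.797 CPM against 2.60 ± 0.903 CPM and did not pass (edgeR adjusted p = 0.192). In the Trav15 family of 4 genes, all but Trav15n-1 also carry a delta name. The family took 1.88, 2.19, 1.71 and 2.02% of alpha V reads in the wild-type units and 3.70, 4.26 and 3.32% in the floxed units. The groups thus did not overlap at the level of the family either (exact permutation p = 0.0571, adjusted p = 0.127).

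Across alpha V use as a whole, 12 of the 35 segments with a mean share of at least 1% had groups that did not overlap, 2 higher (Trav6n-6 and Trav9n-4) and 10 lower, a share close to the 30.8% of all genes tested that did not overlap in CPM. Of the 10, Trav4d-4 and Trav4n-4 were listed at the same share in every unit, so they are not separate observations. The same holds for Trav6d-7 and Trav6n-7 among the 35, whose groups overlapped. Among alpha V segments with at most 50% shared words the groups did not overlap for 2 segments. That set is much smaller, since 74 of the 98 analysed alpha V segments are outside it, so the 2 counts cannot be compared directly. At the level of families 5 of 13 did not overlap: Trav5, Trav8 and Trav15 were higher, and Trav4 and Trav16 were lower, again a share not far from 30.8%. The n copies took 21.5 ± 1.73% of alpha V reads in the wild-type units and 24.9 ± 1.02% in the floxed units, and segments with neither letter 56.1 ± 1.28% and 50.3 ± 1.36% (exact permutation p = 0.0571 for each, adjusted p = 0.114). The effective number of alpha V segments, the exponential of the Shannon entropy of the shares, was 68.5, 63.1, 70.1 and 66.7 in the wild-type units and 74.4, 72.2 and 72.7 in the floxed units, which did not overlap (exact permutation p = 0.0571, adjusted p = 0.114). The difference of 6.0 was 6.46 after each unit was thinned to the alpha V reads of the shallowest, 2.31 over segments with at most 50% shared words and 0.81 over families. From TPM it was 3.50, with groups that overlapped (exact permutation p = 0.114). In the beta locus the effective number was 17.5 ± 0.136 and 17.2 ± 0.285 (exact permutation p = 0.229), and the groups overlapped. From TPM or over families the beta groups did not overlap, at differences of -1.13 and -0.55 in place of -0.35 (exact permutation p = 0.0571 for each).

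**Figure D4:**
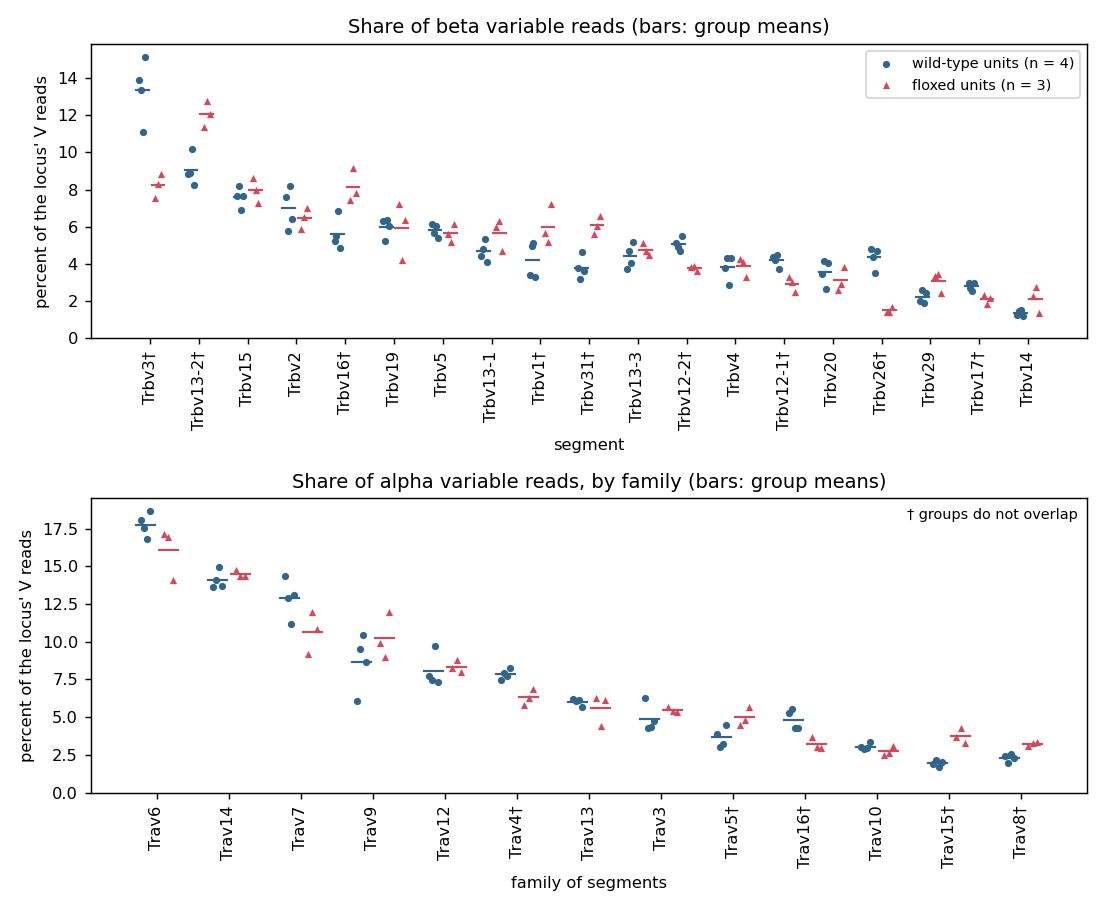
Percent of V reads (vertical axis) taken by each beta V segment (upper panel) and each alpha V family (lower panel) with a mean share of at least 1%, in every unit, with group means as bars and daggers where the groups do not overlap. Trbv3 falls from the largest share, 11.1 to 15.1% in the wild-type units, to 7.53 to 8.82%, and the Trav15 family lies at 1.71 to 2.19% in the wild-type units and 3.32 to 4.26% in the floxed units.

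Joining segments, short exons that complete the V region, gave 48.1 to 72.0 CPM in the alpha locus of the wild-type units and 50.2 to 75.9 CPM in the floxed units. Traj37 was the only J segment that fell. It is shown whole, with Traj23, a more used segment whose groups also did not overlap, and with capitals at the 12 bases of the phenylalanine-glycine-X-glycine motif that closes the antigen-reading loop.
Traj37, chr14:54181518-54181577, plus strand: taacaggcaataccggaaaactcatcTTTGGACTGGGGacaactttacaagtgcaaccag
Traj23, chr14:54196081-54196140, plus strand: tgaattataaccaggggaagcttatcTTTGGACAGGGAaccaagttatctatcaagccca
Traj37 (ENSMUSG00000076893) was at 2.52, 2.59, 3.57 and 1.60 CPM in the wild-type units and 1.02, 1.10 and 0.655 CPM in the floxed units (log2 fold change -1.48 ± 0.44, edgeR adjusted p = 0.0479). Traj23 was at 3.89 ± 0.728 CPM against 2.25 ± 0.520 CPM and did not pass (edgeR adjusted p = 0.137). Traj2 and Traj21, the other alpha J segments among the 3 most used, had log2 fold changes of 0.48 ± 0.40 and -0.05 ± 0.36 (edgeR adjusted p = 0.443 and 0.945). The most used beta J segments, Trbj2-7, Trbj2-3 and Trbj1-6, had log2 fold changes of -0.29 ± 0.19, -0.28 ± 0.23 and 0.28 ± 0.27 (edgeR adjusted p = 0.313, 0.424 and 0.51). The 25 alpha J segments nearest Trac took 64.7 ± 2.90% of alpha J reads in the wild-type units and 69.9 ± 6.43% in the floxed units, and the Trbj1 cluster 46.8 ± 4.2% and 48.6 ± 2.04% of beta J reads, both with overlap (exact permutation p = 0.171 and 0.514).

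Segments of the semi-invariant receptors were present at low levels. Trav11 and Traj18 form the alpha chain of invariant natural killer T cells, which pair it with Trbv13-2, Trbv29 or Trbv1, and Trav1 and Traj33 form that of mucosal-associated invariant T cells. Trav11 was at 0.787, 1.03, 1.45 and 0.838 CPM in the wild-type units and at 3.12, 3.47 and 0.638 CPM in the floxed units. Knockout-labelled units 1 and 2 were above every wild-type unit and unit 3 below them all (log2 fold change 1.2 ± 0.57, edgeR adjusted p = 0.172). Of the 31-base words of Trav11 99.7% also occur in another gene, and with its copy Trav11d listed at 0 the division of reads between them is uncertain. Traj18 was at 1.11 ± 0.743 CPM against 1.88 ± 0.331 CPM (edgeR adjusted p = 0.395). Trav1 and Traj33 were at 1.26 ± 0.430 and 0.783 ± 0.244 CPM in the wild-type units and 0.912 ± 0.226 and 0.755 ± 0.271 CPM in the floxed units (edgeR adjusted p = 0.524 and 0.97). Zbtb16, a transcription factor gene of innate-like T cells including natural killer T cells, was at 0.393, 0.440, 0.200 and 0.229 CPM against 9.25, 13.5 and 2.89 CPM and rose (edgeR adjusted p = 0.00139), with floxed unit 3 again the lowest of its group.

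The gamma locus gave few reads, and more of them in the floxed units. The summed constant genes were at 8.57, 8.84, 10.5 and 7.01 CPM in the wild-type units and 14.7, 11.5 and 12.5 CPM in the floxed units, which did not overlap (log2 difference 0.57, exact permutation p = 0.0571, adjusted p = 0.314 over 11 sums). Per 1000 beta constant reads, gamma constant reads numbered 7.26, 4.73, 6.56 and 5.10 against 10.7, 9.0 and 12.1 (exact permutation p = 0.0571, adjusted p = 0.114). Singly, none of the 3 tested constant genes passed. Tcrg-C1 had a log2 fold change of 0.47 ± 0.32, Tcrg-C2 of 0.74 ± 0.43 and Tcrg-C4 of 0.53 ± 0.51 (edgeR adjusted p = 0.345, 0.267 and 0.508), and Tcrg-C3 was under the count filter at 0 to 0.150 CPM in all units. The units with the high values differed between genes, since Tcrg-C1 was highest in floxed unit 3 (9.24 CPM) and Tcrg-C2 in units 1 and 2 (5.09 and 5.33 CPM).

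Gamma V reads were mostly from Trgv2, Tcrg-V4 and Tcrg-V1. Summed over 7 segments they reached 1.34, 0.879, 2.05 and 0.914 CPM in the wild-type units and 5.80, 5.05 and 1.40 CPM in the floxed units, so units 1 and 2 stood above the wild-type units and unit 3 among them (exact permutation p = 0.114, adjusted p = 0.314). Per CD3 chain read, a denominator that was itself lower in the floxed units, the groups did not overlap. The log2 difference was then 1.81 in place of 1.46 (exact permutation p = 0.0571). Tcrg-V4 was at 0, 0.684, 0.724 and 0.0762 CPM against 2.24, 2.14 and 0.460 CPM, and Trgv2 at 1.02, 0.147, 0.674 and 0.533 CPM against 2.04, 1.99 and 0.460 CPM. With Tcrg-V1 (log2 fold change 1.73 ± 0.89) they had log2 fold changes of 1.34 to 1.97, and none passed (edgeR adjusted p = 0.169 to 0.211). The other gamma V segments, Tcrg-V3, Tcrg-V5, Tcrg-V6 and Tcrg-V7, were under the count filter. Of a list of 8 gamma-delta T cell markers 4 rose and 0 fell, where 7.07% of all genes tested rose. Their summed level was 22.2 to 30.8 CPM in the wild-type units and 61.3 to 66.0 CPM in the floxed units. Sox13 was at 0 in at least 1 wild-type unit. The 4 include Zbtb16, described above as a gene of innate-like T cells, so the list is not particular to gamma-delta T cells. The highest sum, 66.0 CPM, was that of floxed unit 3, whose gamma V sum lay among the wild-type units. The part of gamma-delta T cells in the gamma result was not tested.

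The sum of delta V reads did not separate the groups, but the share of Trdv2-2 did. The 5 delta V segments summed to 4.01, 2.69, 4.10 and 3.43 CPM in the wild-type units and 3.48, 3.16 and 2.64 CPM in the floxed units (log2 difference -0.19, exact permutation p = 0.343). Trdv2-2 gave most of these reads in every wild-type unit, at 2.83, 1.76, 2.90 and 2.59 CPM, and 2.19, 1.99 and 0.832 CPM in the floxed units (log2 fold change -0.59 ± 0.44, edgeR adjusted p = 0.379). Its share of delta V reads was 70.6, 65.5, 70.7 and 75.6% in wild-type units 1 to 4 and 63.1, 62.9 and 31.5% in floxed units 1 to 3, which did not overlap (exact permutation p = 0.0571), and floxed unit 3 was the lowest. With Trdv2-1 added, the family took 70.6 to 78.2% in the wild-type units and 50.3 to 69.4% in the floxed units (exact permutation p = 0.0571). Delta V reads numbered 45 to 164 per unit, and these shares were outside the set adjusted together. Trdv2-2 shares 60.2% of its words with another gene, and over the delta V segments with at most 50% shared words the log2 difference was 0.34 (exact permutation p = 0.286). Trdv1 and Trdv5 had log2 fold changes of 0.05 ± 0.60 and 1.10 ± 1.00 (edgeR adjusted p = 0.966 and 0.484). The 2 delta J segments summed to 0.629 to 0.838 CPM against 0.575 to 1.22 CPM.

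**Figure D5:**
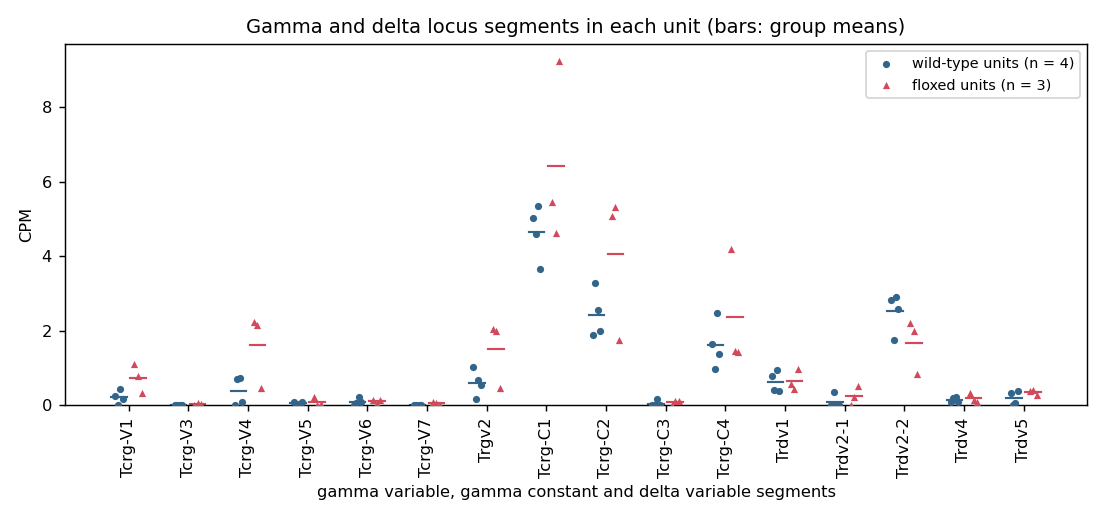
CPM (vertical axis) of the gamma V, gamma constant and delta V segments in each unit, with group means as bars. Tcrg-V4 and Trgv2 lie at 1.99 to 2.24 CPM in floxed units 1 and 2 and at 0.460 CPM in unit 3, and Tcrg-C1 is highest in unit 3 at 9.24 CPM.

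The genes of proteins that work with the receptor were followed as a fixed list of 11: the CD3 chains that carry its signal, the coreceptors, the surrogate alpha chain Ptcra and the enzymes of recombination. Of the 10 that could be tested 1 fell, the CD3 chain gene Cd3g, and 0 rose in edgeR, where 6.52% of all genes tested fell and 7.07% rose. At an unadjusted p under 0.05 in edgeR 3 were lower and 2 higher, limma-voom gave 1 fall and 0 rises, and DESeq2's Wald test gave 3 falls and 2 rises. Cd3g was at 299, 417, 366 and 359 CPM against 293, 233 and 183 CPM (log2 fold change -0.61 ± 0.18, edgeR adjusted p = 0.0498). Cd3e and Cd3d missed the threshold at -0.50 ± 0.15 and -0.57 ± 0.20 (edgeR adjusted p = 0.0532 and 0.0801), and Cd247, the gene of the zeta chain, had 0.14 ± 0.16 (edgeR adjusted p = 0.559). Cd4 was at 627 ± 48.3 CPM against 557 ± 44.2 CPM and Cd8a at 3.33 ± 1.16 CPM against 8.03 ± 4.04 CPM (edgeR adjusted p = 0.424 and 0.0733). Cd8b1, Ptcra and Rag2 did not pass (edgeR adjusted p = 0.732, 0.633 and 0.414). Dntt, the enzyme that adds untemplated bases at the junctions, was at 0, 1.32, 1.35 and 0.457 CPM against 3.48, 2.76 and 8.04 CPM (log2 fold change 2.53 ± 0.86, edgeR adjusted p = 0.0854). Rag1, a subunit of the recombinase, was under the count filter, at 0 in 3 of the 4 wild-type units and at 0.376, 0.230 and 2.36 CPM in the floxed units. Of 5 thymocyte markers, which include Rag1, Rag2, Ptcra and Dntt, 0 passed in edgeR or limma-voom and 1 in DESeq2's Wald test, with 2 at an unadjusted p under 0.05 in edgeR. Their summed level was 5.17 to 6.48 CPM in the wild-type units and 8.41 to 15.2 CPM in the floxed units, and their part in the V segment results was not tested.

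The falls differed in how far they rested on single units. Trbv26, Trbv3, Trbv23, Trav6-7-dv9 and Trav16n passed when any 1 of the 7 units was left out (edgeR adjusted p of 0.0489 at most). The other 10 of the 15 called segments did not pass in at least 1 of those 7 fits. Trbv12-2 did not pass without wild-type unit 2 or 4 or floxed unit 2 (edgeR adjusted p up to 0.0656), nor Trav15n-1 without wild-type unit 4 or floxed unit 1 or 2 (up to 0.0626). Trbv2, Trbv17 and Trbv12-1 passed only without wild-type unit 1 or floxed unit 1 (edgeR adjusted p up to 0.0805, 0.0898 and 0.0887 in the other fits), and Trbv20 only without wild-type unit 1 or 3 (up to 0.113). Trav7-2 passed only without wild-type unit 1 (up to 0.103) and Trav16 only without floxed unit 1 (up to 0.135). Trav7-6 and Traj37 passed in 0 of the 7 fits (edgeR adjusted p from 0.0565 to 0.147). Among the partners, Cd3g passed only without wild-type unit 1 or floxed unit 1 (edgeR adjusted p up to 0.148 in the other fits).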

How the data were processed

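Libraries were made with a non-stranded TruSeq kit, per the labels' protocols, and quantified by the authors with kallisto on GRCm38 (per the submitters' processing notes). Neither its version nor the annotation release is given in the sources used here. Deposited by the authors for each transcript were an estimated count, TPM, length and effective length. Estimated counts were summed per GENCODE M21 gene (30284 genes), the 2 parts of a unit were added (their chi-square per degree of freedom was 1.44 to 1.91) and rounded; 2079 of 88198 transcripts had no gene and held 1.17 to 1.28% of reads. The authors' TPM served for levels per length. Nothing in the labels says that units came from separate animals beyond 1-2 animals per library, so a p-value here speaks of the spread among these 7 units.

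The 7 units were compared with edgeR 4.0.16 (TMM, filterByExpr, robust quasi-likelihood, group only, prior count of 2 for fold changes), adjusted over all genes at 0.05. CPM are estimated counts scaled to a TMM-adjusted library of 1000000. Sums, ratios, shares and effective numbers were compared by exact two-sided permutation. Shared 31-base words were counted over all M21 transcripts. Sequences come from the GENCODE M21 transcripts. Alternatives used limma 3.58.1, DESeq2 1.42.0 and an offset on GC content and length; scripts were tested on simulated data.

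Named genes were every constant segment, every called segment, the V segments with the highest mean share (8 alpha, 8 beta, 3 gamma, 3 delta), the 3 most used J segments of alpha and of beta, Trav11, Trav11d, Trav1, Trbv13-2, Trbv29, Trbv1 and the 11 partners. Trbv5, Trbv14, Trbv16, Trbv31, Traj18, Traj33, Traj23, Trav14d-1, Trav15d-1-dv6d-1, Trav16d-dv11, Trav12 copies and Zbtb16 were added after values were seen where they fall outside the rule. CD8 T cell markers (0 of 4 changed in edgeR, 1 at an unadjusted p under 0.05) were also followed. Members and lists were chosen with earlier results of these data known. Same-numbered units did not deviate together (correlations 0.03, -0.12 and -0.05), so the numbers were not used as pairs.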

Additional observations from a re-analysis of the deposited data

Results flagged for a closer look

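In 3 of 59 groups of 4 wild-type units checked, 1 unit lay further from the others than Dixon's 95% limit for 4 values, and chance alone gives about 1 in 20. Trav16n was at 4.80 CPM in wild-type unit 1 and at 6.55 to 6.78 CPM in the other wild-type units. The summed alpha V reads were at 189 CPM in wild-type unit 1, the shallowest library, and at 245 to 254 CPM in the others. The effective number of beta V segments was 17.7 in wild-type unit 2 and 17.4 to 17.5 in the others.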

How the results depend on the processing

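Of 578 alternatives computed, 450 kept the direction and the side of the threshold, or a count within 1.5 times, 74 lost the threshold, 1 gained it, 34 moved and 19 reversed. The 1 that gained it was Trbc2 with the offset for GC content and length. Segment falls numbered 14 in edgeR, 24 with DESeq2's Wald test and 52 with the offset for GC content and length. Falls over all genes numbered 1028 of 15775, 1707 of 15775 and 1110 of 15759 in the same fits. When single units were left out, segment falls numbered 5 to 12 and falls over all genes 309 to 978. Segment rises numbered 1, and 0 to 1 when units were left out. Partner falls numbered 0 with DESeq2 size factors, library-size scaling, no count filter or part 1 alone, 2 with a stricter count filter, 3 with the Wald test, and 0 to 2 when units were left out. Partner rises numbered 1 with no count filter or part 1 alone, 2 with the Wald test, and 0 to 1 when units were left out. With a replicate block on the unit numbers (wild-type unit 4 left out), 2 segments fell (Trbv26 and Trbv3, edgeR adjusted p = 0.0128 and 0.0163), 0 rose and 0 partners fell. Of all 15564 genes tested in that fit 228 fell and 325 rose. The numbers share only a label, so this pairing is not a design.

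Some sums changed sign, and in those per CD3 chain read the CD3 reads were themselves lower in the floxed units. Per CD3 chain read the log2 differences were 0.32 (alpha J), 0.35 (alpha C, with groups that no longer overlapped, exact permutation p = 0.0571), 0.24 (beta J), 0.084 (beta C) and 0.17 (delta V); delta V was 0.34 at no more than 50% shared words, delta J -0.092 with part 1 alone, and alpha C 0.0082 with library-size scaling. Without floxed unit 3 the beta V, alpha V and beta C differences were -0.38, -0.29 and -0.17. When units were left out, Trac ranged from -0.12 to 0.063, the alpha C sum from -0.12 to 0.071, alpha J from -0.20 to 0.10, beta J from -0.25 to 0.053 and delta J from -0.21 to 0.30. Alpha V segments with shares that did not overlap numbered 12, 2 at no more than 50% shared words and 5 as families, in sets of different size. Causes were not tested. The share of calls over all genes that were upward was 38.7% with the offset, 62.0% without wild-type unit 1 and 63.8% without floxed unit 2, against 52.1%. Reads limit the gamma and delta segments: V reads numbered 12 to 262 and 45 to 164 per unit, and J reads 0 to 36 and 8 to 48.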
